A study of Homo sapiens with 9 samples.

Results

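The genes described here are the nuclear-encoded subunits of the mitochondrial respiratory chain (complexes I to IV) and of ATP synthase (complex V). They were matched by symbol, and the list was drawn up with earlier results of these data known. It held the NDUFA, NDUFAB, NDUFB, NDUFC, NDUFS and NDUFV series, SDHA to SDHD, and the UQCR genes with CYC1. It also held the widely expressed COX subunit genes and the ATP5 genes, under the older ATP5 symbols that the table uses. The symbols matched 78 of the 23621 gene rows: 38 in complex I, 4 in complex II, 9 in complex III, 11 in complex IV and 16 in complex V. Assignment to complexes followed the symbols; NDUFA4 was counted in complex I by its name although it is now placed in complex IV, COX7A2L is best known as an assembly factor of supercomplexes, and ATP5S is an accessory factor of ATP synthase.

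The cells were MOLT4, a human line established from a T-cell acute lymphoblastic leukemia. RNA was sequenced in 9 libraries in 3 groups of 3, all collected after 6 h. The vehicle group received 0.1% DMSO. The other groups were titled MI-389, which the series design calls a phthalimide conjugate, and sunitinib, a kinase inhibitor. Phthalimides of the thalidomide type are ligands of the ubiquitin ligase receptor cereblon, and binding to it was not measured here. The labels conflict: for libraries titled MI-389 the source field names sunitinib at 1 µM, and for libraries titled sunitinib it names MI-389 at 0.1 µM. Column names and the barcode list follow the titles, so the groups are written as titled. If the source field holds, each statement on one treated group belongs to the other compound. The doses in that field differ, so compound and dose cannot be told apart between the treated groups. Whether replicates are separate cultures is not stated in the labels; p-values therefore reflect only the spread among these libraries, which may be technical.

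Complexes I and II pass electrons from NADH and succinate to ubiquinone, complex III passes them to cytochrome c, and complex IV passes them to oxygen. Proton pumping by complexes I, III and IV drives ATP synthase. Nuclear genes encode most subunits, which are imported and assembled with a few core subunits made inside the mitochondrion. Nuclear respiratory factors such as NRF1, the ETS factor GABP and YY1 are known to bind the promoters of many of these genes.

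Promoter sequences of the members with the smallest adjusted p in complexes I, III, IV and V, or the next in rank, are shown as examples of the control regions of the most strongly called genes; none of the motifs searched is in all 4. UQCRB ranked ahead of UQCR11 in complex III, and ATP5J2 ahead of ATP5H in complex V; both are named only. Sequences are from RefSeq (GRCh38.p14), limited to bases before the start of the gene and outside annotated exons, 5′ to 3′ on the strand of the gene. Capitals mark every match to 1 of 6 motifs on either strand: GCATGCGC (core of the NRF1 site), CCGGAAG (ETS core, read by GABP), AAGATGGC (YY1 core), GGGCGG (Sp1), CCAAT and TATAAA.
NDUFS8, chr11:68030462-68030626 (plus strand): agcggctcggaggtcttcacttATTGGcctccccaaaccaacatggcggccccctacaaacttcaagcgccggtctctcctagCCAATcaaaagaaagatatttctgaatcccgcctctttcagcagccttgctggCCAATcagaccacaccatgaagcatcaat
UQCR11, chr19:1605491-1605712 (minus strand): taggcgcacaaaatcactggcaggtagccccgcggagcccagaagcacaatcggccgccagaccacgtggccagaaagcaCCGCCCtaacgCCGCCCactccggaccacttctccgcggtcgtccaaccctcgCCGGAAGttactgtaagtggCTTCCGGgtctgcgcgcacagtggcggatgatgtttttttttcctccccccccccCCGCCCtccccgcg
COX7B, chrX:77899218-77899437 (plus strand): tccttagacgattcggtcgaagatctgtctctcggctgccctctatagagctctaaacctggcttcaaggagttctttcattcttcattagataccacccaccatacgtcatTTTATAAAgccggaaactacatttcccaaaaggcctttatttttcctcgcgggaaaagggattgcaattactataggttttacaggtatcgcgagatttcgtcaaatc
ATP5H, chr17:75046986-75047219 (minus strand): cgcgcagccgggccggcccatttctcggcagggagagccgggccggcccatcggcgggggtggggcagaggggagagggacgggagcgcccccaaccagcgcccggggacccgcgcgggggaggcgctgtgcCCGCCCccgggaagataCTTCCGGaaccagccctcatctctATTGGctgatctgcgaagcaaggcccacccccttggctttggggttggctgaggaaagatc

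The NDUFS8 segment held 3 CCAAT boxes, that of UQCR11 held 2 ETS cores and 3 Sp1 motifs, and that of ATP5H held an ETS core, an Sp1 motif and a CCAAT box. In COX7B the capitals are 2 overlapping TATAAA matches, 1 on each strand. Of the 78 genes, 64 had an entry, with 77 promoters of 250 bases before to 50 after the start. The NRF1 core was in 19.5% of these against 3.05% of all 35116 RefSeq promoters of that length, the ETS core in 27.3% against 10.3%, and the YY1 core in 16.9% against 2.89%. Sp1 motifs were in 61.0% against 45.0%, CCAAT in 31.2% against 34.6% and TATAAA in 7.79% against 11.5%. Motif content and the difference between libraries titled MI-389 and DMSO were set side by side without a test. The 14 genes with an NRF1 core had a median log2 difference of −0.29, with 12 lower, and the 50 without had −0.38, with 42 lower. The 20 genes with an ETS core had −0.40, with 17 lower, and the 44 without had −0.38, with 37 lower. For the YY1 core the medians were −0.29 over 12 genes and −0.38 over 52. A match is a description of the letters and not a site of binding.

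The deposited values were FPKM, fragment counts scaled by transcript length and library size. The division by length allows an approximate comparison between genes, as the length used for each gene is not known here. The genes were abundant: the median member had a mean of 323 FPKM over the 9 libraries, against 25.2 FPKM for the 12301 tested genes. Genes were tested where that mean was 1 FPKM or more, which every member passed. ATP5E, the epsilon subunit of ATP synthase, was highest at 3340 FPKM, followed by COX7C, a small subunit of complex IV, at 2517 FPKM. ATP5S was lowest at 7.81 FPKM, and NDUFA10, an accessory subunit of complex I, was next at 41.2 FPKM. The median level was 264.6 FPKM in complex I, 166.5 in complex II, 262.4 in complex III, 951 in complex IV and 654 in complex V.

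Total reads were not used here because FPKM tables hold none. The size of single steps in low values put the depth of the treated groups at about 1.31 and 1.32 times that of DMSO (libraries titled MI-389 and sunitinib, from 73 and 88 genes). Spike-in RNAs differed from DMSO by medians of −0.03 and −0.01 on the log2 scale, and 3 members lay above the most abundant of them (1523 FPKM). All 10 T-lineage markers had a mean of at least 1 FPKM (summed level 3836 to 4967 FPKM). That mean was reached by 2 of 4 B-cell markers (summed level 8.87 to 12.7 FPKM), 0 of 4 myeloid markers (0.772 to 1.05) and 1 of 6 epithelial and fibroblast markers (2.10 to 3.31). DMSO replicate 1 stood apart: it was the lowest of the 3 DMSO libraries for 77 of 78 members, and for 61.1% of all tested genes. DMSO replicates 1 to 3 had medians over the members of 8.34, 8.54 and 8.60 on the log2 scale, against 8.24, 8.19 and 8.22 for the libraries titled MI-389 and 8.37, 8.39 and 8.34 for those titled sunitinib. Results that rest on DMSO replicate 1 are given with and without it.

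In the libraries titled MI-389, most of the genes were lower than in DMSO. The median log2 difference over the 78 members was −0.38, while the median over all tested genes was 0.00. By limma on log2(FPKM + 1) with Benjamini-Hochberg adjustment over the 12301 genes, at an adjusted p of 0.05, 64 members were lower, 1 was higher (COX7A2L) and 13 did not pass. Among all tested genes 56.7% were called in either direction, 28.3% lower and 28.5% higher. Libraries of the groups did not overlap, with those titled MI-389 lower, for 64 members, against 29.7% of all tested genes. The fall was at least 0.5 on the log2 scale for 19 members. The share of all tested genes with such a fall was not computed, and their lower quartile was −0.27. Without DMSO replicate 1 the calls were 70 lower and 1 higher, against 33.2% of all tested genes lower, and the median was −0.43. The log2(FPKM + 1) scale understates changes of low genes, which among the members matters most for ATP5S, the lowest. In bulk samples a larger fall in part of the cells and a smaller fall in all of them cannot be told apart.

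**Figure D1:**
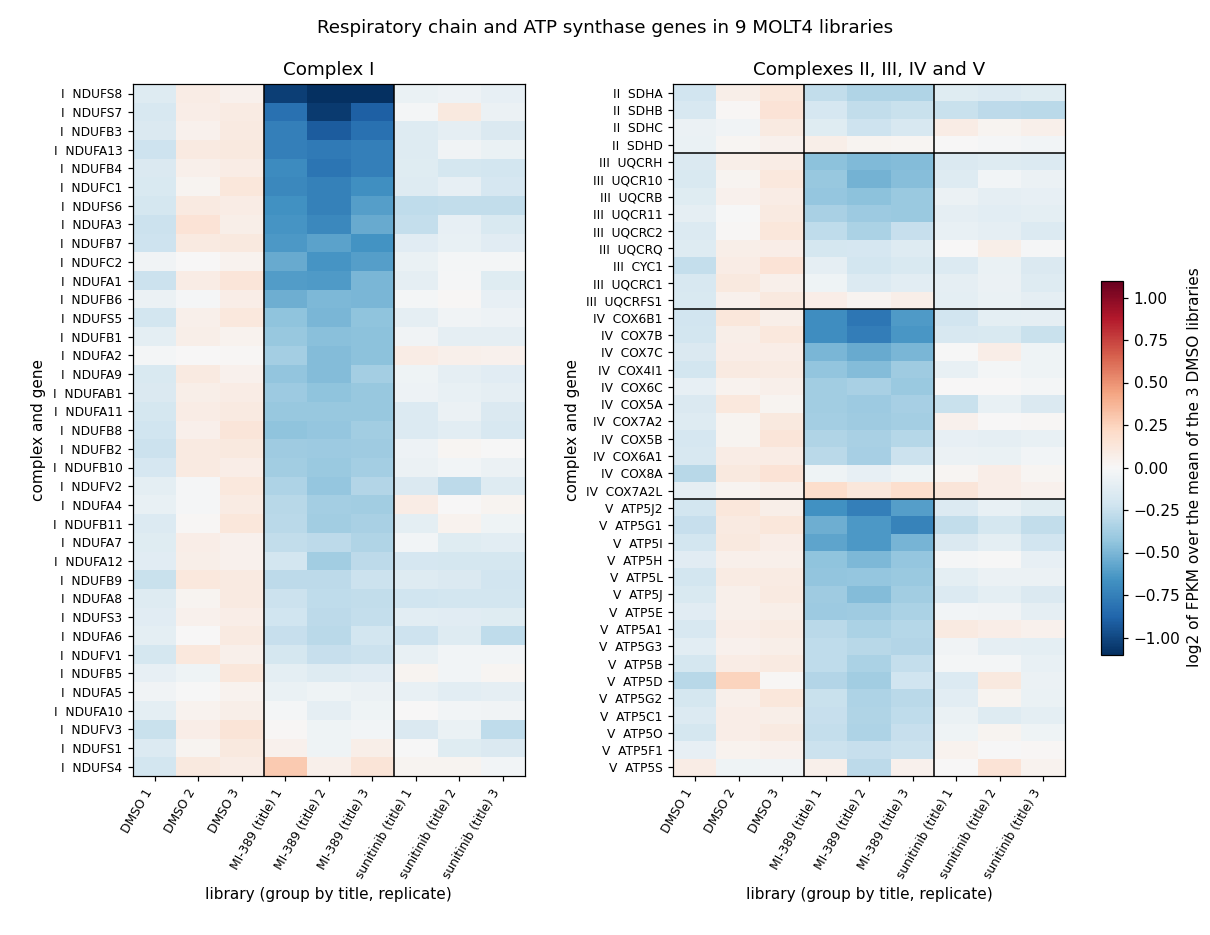
Each row is a gene (77 of the 78), with its complex, and each column a library; color is log2 of FPKM over the mean of the 3 DMSO libraries as deposited, from blue (lower) to red (higher). The 3 libraries titled MI-389 are blue for most genes of every complex, deepest for NDUFS8, while COX7A2L is red, and DMSO replicate 1 is bluer than the other DMSO libraries for nearly all genes.

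In complex I, 32 of 38 members were lower and none higher (median −0.41). NDUFS8, a core iron-sulfur subunit on the path of electrons to ubiquinone, stood at 298, 348 and 339 FPKM in DMSO replicates 1 to 3, at 160.2, 153 and 148 FPKM in the libraries titled MI-389 and at 312, 316 and 308 FPKM in those titled sunitinib. Every library titled MI-389 was below all 6 others, which overlapped with each other. The difference from DMSO was −1.09 ± 0.064 (SE, log2 scale; limma, adjusted p = 1.37e-06), a mean 53.2% lower. It was the largest fall of the 78 genes, and it lay between −1.17 and −0.84 under 5 scalings between libraries.

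NDUFB3, an accessory subunit of the membrane arm, stood at 325, 375 and 389 FPKM in DMSO and 215, 193 and 205 FPKM in the libraries titled MI-389, a fall of 0.82 ± 0.073 on the log2 scale (limma, adjusted p = 1.48e-05). NDUFC2, another accessory subunit of that arm, stood at 71.1, 73.3 and 75.2 FPKM in DMSO, at 49.8, 46.7 and 48.0 FPKM in the libraries titled MI-389 and at 69.6, 72.1 and 72.3 FPKM in those titled sunitinib. Its log2 difference from DMSO was −0.59 ± 0.047 (limma, adjusted p = 7.53e-06). For both genes the libraries titled MI-389 lay below all DMSO libraries without overlap. NDUFA13, an accessory subunit also known as GRIM-19 and the most abundant member of the complex, fell from 995 ± 127 to 587 ± 6.97 FPKM (SD, n = 3; log2 difference −0.75, limma, adjusted p = 6.88e-05).

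The 7 core subunits, which carry the redox centers and the ubiquinone site, did not move alike. The genes named in this paragraph were chosen after their values were seen. NDUFS7, which carries the last iron-sulfur cluster before ubiquinone, stood at 203, 239.9 and 243 FPKM in DMSO and 129.6, 110.3 and 123 in the libraries titled MI-389 (−0.91 ± 0.087, limma, adjusted p = 2.27e-05). Of its exon bases 55.1% overlap genes on the opposite strand in GENCODE 29, and the library kit does not mark strand. NDUFS1, the largest iron-sulfur subunit, stood at 64.0, 72.4 and 76.7 FPKM in DMSO and 73.2, 68.8 and 74.5 FPKM in the libraries titled MI-389. NDUFS7 was lower in every library titled MI-389 than in any DMSO library, whereas the NDUFS1 libraries overlapped and its difference of 0.03 (95% interval −0.14 to 0.19) did not pass. More than 10% of the NDUFS1 exon bases also have a gene on the opposite strand. Reads from that strand cannot be told apart for either gene, so the contrast between them carries this limit on both sides.

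Of the core subunits 6 were lower, and of the 31 accessory subunits 26. The 5 accessory subunits that did not pass were NDUFA5, NDUFA10, NDUFB5, NDUFV3 and NDUFS4, with differences from −0.12 (NDUFB5) to 0.17 (NDUFS4, a subunit that stabilizes the NADH-oxidizing module; 95% interval −0.03 to 0.37). All but NDUFV3 gained a call under another scaling. NDUFS4 was called higher after quantile normalization (0.31) and cyclic loess (0.37). NDUFA5 was called higher after both (0.12 and 0.16) but lower with median centring (−0.14). NDUFB5 was called higher after cyclic loess (0.11) and lower with median centring (−0.20). NDUFA10 was called lower after cyclic loess (−0.077), quantile normalization (−0.12) and median centring (−0.13).

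In complex II, succinate dehydrogenase, which is also an enzyme of the tricarboxylic acid cycle, 3 of 4 genes were lower (median −0.20). SDHA, the flavoprotein, stood at 126, 153 and 159 FPKM in DMSO and 121, 116 and 116 FPKM in the libraries titled MI-389 (−0.30 ± 0.079, limma, adjusted p = 0.00869). SDHC, a membrane anchor, differed by −0.17 (adjusted p = 0.0215) and SDHB, the iron-sulfur subunit, by −0.23 (adjusted p = 0.0256). SDHB turned to 0.014 after cyclic loess, and its call was lost without DMSO replicate 2 or 3 or replicate 2 or 3 of the group titled MI-389 (adjusted p 0.0646 to 0.0790), with no filter on low values (0.0597), with the 6 compared libraries alone (0.0619), with a replicate block (0.0503) and after quantile normalization (0.725). The SDHC call was lost without replicate 2 (0.0758) or 3 (0.0578) of the group titled MI-389 and with the 6 compared libraries alone (0.0573). SDHD, the other anchor, stood at 191, 203 and 206 FPKM in DMSO and 209, 204 and 203 FPKM in the libraries titled MI-389. Its libraries overlapped and the difference of 0.04 (95% interval −0.07 to 0.15) did not pass, but it was called higher after quantile normalization (0.22) and cyclic loess (0.26) and was −0.04 with median centring.

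In complex III, 6 of 9 members were lower (median −0.29). UQCRH, the hinge protein that binds cytochrome c1 and the most abundant member of the complex, stood at 1216, 1419 and 1435 FPKM in DMSO and 993, 969 and 976 FPKM in the libraries titled MI-389 (−0.47 ± 0.068, limma, adjusted p = 0.000321). The small subunits UQCRB and UQCR11 fell by 0.43 and 0.38 on the log2 scale. Libraries of the 2 groups did not overlap for any of these 3 genes. The 3 members that did not pass were UQCRFS1, the Rieske iron-sulfur protein, CYC1, cytochrome c1, and UQCRC1, a core protein. UQCRFS1 stood at 259, 299.7 and 313 FPKM in DMSO and 306, 296 and 304 FPKM in the libraries titled MI-389, which lay within the range of DMSO (difference 0.06, 95% interval −0.09 to 0.21). It was called higher after quantile normalization (0.25) and cyclic loess (0.33). CYC1 differed by −0.14 and UQCRC1 by −0.10, and the direction of both depended on the scaling. CYC1 was called lower with median centring (−0.22) and higher after cyclic loess (0.13). UQCRC1 was called lower with median centring (−0.18) and higher after quantile normalization (0.11) and cyclic loess (0.14).

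In complex IV, 9 of 11 members were lower and 1 was higher (median −0.38). COX7B, a small subunit, stood at 1326, 1595 and 1645 FPKM in DMSO, at 946, 898 and 978 FPKM in the libraries titled MI-389 and at 1348, 1358 and 1288 FPKM in those titled sunitinib. The libraries titled MI-389 were the lowest 3 of the 9 (−0.69 ± 0.083 against DMSO, limma, adjusted p = 9.42e-05). COX6B1, which faces the intermembrane space, fell by 0.69 ± 0.089 (adjusted p = 0.000138), and COX7C by 0.52 ± 0.076. COX8A, a small subunit, differed by −0.04 (95% interval −0.28 to 0.19) and did not pass, but cyclic loess turned it to 0.30 and quantile normalization to 0.25, both called higher.

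COX7A2 and COX7A2L encode related proteins, the former a subunit of complex IV and the latter a factor that joins complexes III and IV. COX7A2 stood at 373, 420.0 and 444 FPKM in DMSO and 318, 314 and 317 in the libraries titled MI-389 (−0.38 ± 0.064, limma, adjusted p = 0.000808). COX7A2L stood at 235, 258 and 262 FPKM in DMSO and 288, 275 and 286 FPKM in the libraries titled MI-389, with no overlap, and was higher by 0.17 ± 0.056 (limma, adjusted p = 0.0258). The COX7A2L call was lost with the 6 compared libraries alone (adjusted p = 0.0627), with a replicate block (0.0633), and without replicate 1 (0.0821) or 3 (0.0791) of the group titled MI-389.

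In complex V, 14 of 16 members were lower and none higher (median −0.31). ATP5J2, subunit f of the membrane part, stood at 1763, 2204 and 2113 FPKM in DMSO and 1276, 1205 and 1329 FPKM in the libraries titled MI-389 (−0.67 ± 0.085, limma, adjusted p = 0.000134). ATP5I, subunit e, fell by 0.57 ± 0.085 and ATP5H, subunit d of the peripheral stalk, by 0.45 ± 0.064. None of these 3 genes overlapped between the groups. Of the ATP5I exon bases 49.9% overlap a gene on the opposite strand. ATP5D, the delta subunit, and ATP5S did not pass (−0.29 and −0.05); ATP5D was called lower with median centring (−0.37) and after rescaling to spike-in RNA (−0.28). The catalytic beta subunit ATP5B fell by 0.29 as deposited (adjusted p = 0.0113) and was called higher after cyclic loess (0.066).

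Subunit c, which forms the rotor ring, is encoded by 3 genes whose mature proteins are identical. ATP5G1 stood at 593, 757 and 774 FPKM in DMSO, 489, 458 and 425 FPKM in the libraries titled MI-389 and 587, 620.1 and 585 FPKM in those titled sunitinib. The libraries titled MI-389 were again the lowest 3. ATP5G1 fell by 0.62 ± 0.099 (limma, adjusted p = 0.000540), against 0.29 ± 0.083 for ATP5G2 (adjusted p = 0.0142) and 0.30 ± 0.057 for ATP5G3 (adjusted p = 0.00160). The difference between these falls was not tested. ATP5G2 turned to 0.027 after cyclic loess, and it did not pass after quantile normalization (−0.062, adjusted p = 0.148) or without DMSO replicate 2 (0.0524) or replicate 2 of the group titled MI-389 (0.0518). The ATP5G3 call was lost after cyclic loess (−0.057, adjusted p = 0.0978).

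**Figure D2:**
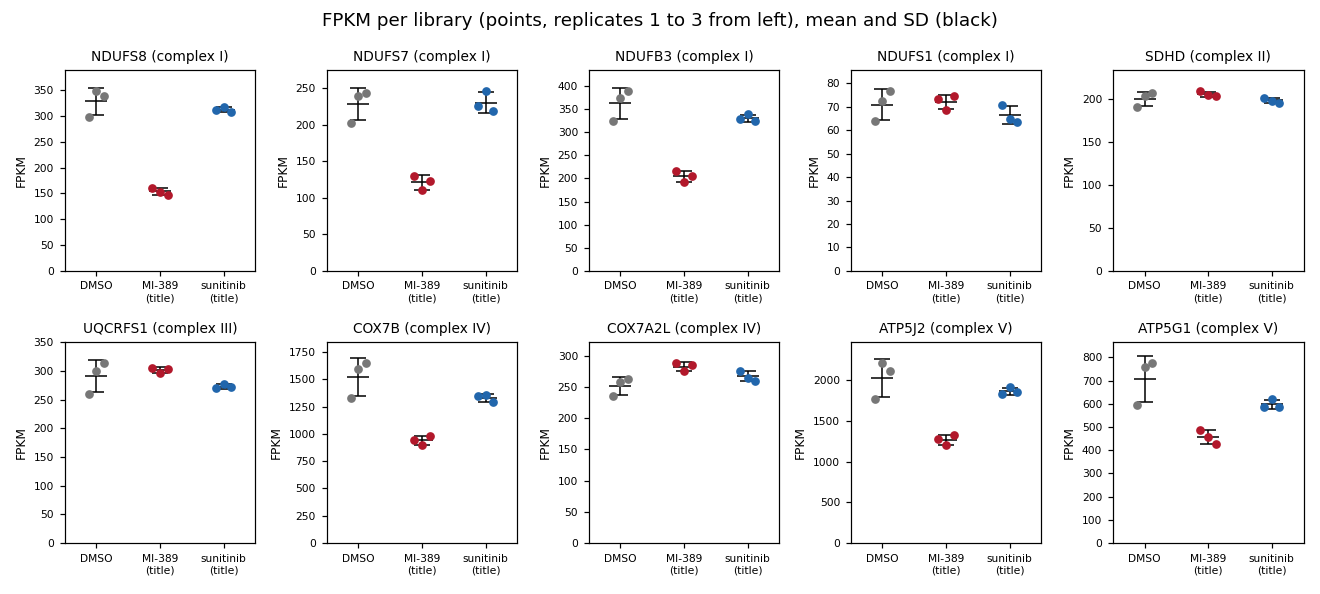
FPKM of 10 genes in each library (points, replicates 1 to 3 from left to right) with the mean and SD of each group (black), on axes that start at 0. NDUFS8, NDUFS7, NDUFB3, COX7B, ATP5J2 and ATP5G1 are lower in all 3 libraries titled MI-389 than in any other library, while NDUFS1, SDHD and UQCRFS1 overlap with DMSO and COX7A2L is higher than in DMSO.

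Differences between members were also read within libraries, as each gene's log2 value minus the median over the 78 members, which no scaling by a constant changes. On this measure 42 members were lower in every library titled MI-389 than in any DMSO library, 13 were higher and 23 overlapped. Measured against the same median over the members, 13.6% of all tested genes were lower without overlap and 59.4% higher. That median was itself lower in the libraries titled MI-389 (mean 8.22, against 8.49 in DMSO). These counts and shares therefore depend on the choice of reference, and the shares are no neutral background for the members. NDUFS8 stood at −0.13 in DMSO and −0.94 in the libraries titled MI-389, a difference of −0.81, followed by NDUFS7 (−0.63) and NDUFB3 (−0.54). At the other end were COX7A2L (0.45), NDUFS4 (0.45) and UQCRFS1 (0.34). NDUFS1, a core subunit like NDUFS8, stood 0.30 higher. The 78 genes share libraries and are not independent. Across them the difference correlated with the mean level at a Spearman rho of −0.35 (−0.21 across all tested genes). With transcript length, taken as the median over the annotated protein-coding transcripts of each gene, rho was 0.38. That length need not be the length of the mRNA expressed here, and this relation was not computed for all tested genes. The more abundant members and those with shorter annotated lengths tended to have the larger falls.

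The size of the fall depended on how libraries were scaled to each other. Spike-in RNAs were already nearly level as deposited (medians of −0.03 and −0.01 from DMSO), so rescaling to them could change little. The closeness of that setting to the deposited values is no separate check, and it adds little to a call under all 5 scalings. The median over members was −0.38 as deposited, −0.37 after rescaling to spike-in RNA and −0.46 with each library centred on its median, but −0.16 after quantile normalization and −0.088 after cyclic loess, which removes trends with abundance. The calls were 51 lower and 7 higher after quantile normalization, against 35.7% and 30.2% of all tested genes, and 42 lower and 11 higher after cyclic loess, against 32.4% and 33.3%. Members called lower under all 5 scalings numbered 41 of 78, against 24.3% of all tested genes: 24 in complex I, 2 in complex II, 4 in complex III, 5 in complex IV and 6 in complex V. NDUFS8, NDUFS7, NDUFB3, NDUFC2, UQCRH, COX7B, COX6B1, ATP5J2 and ATP5G1 were among them, and COX7A2L was called higher under all 5. After cyclic loess 15 members called lower as deposited had a difference above 0, and 2 of these, ATP5B and ATP5O, were then called higher.

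**Figure D3:**
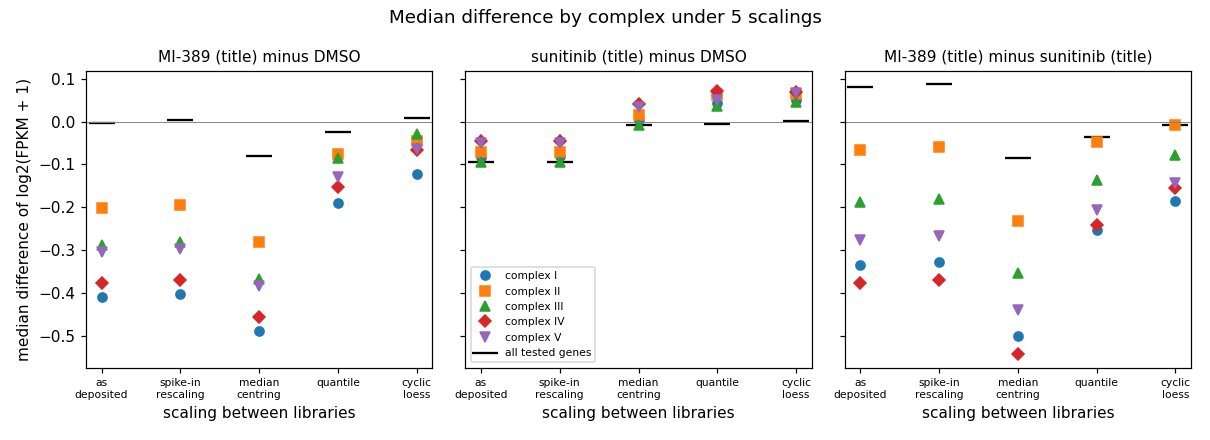
Median difference of log2(FPKM + 1) for each complex (symbols) and for all tested genes (black bars) under 5 scalings between libraries, for the 3 comparisons. Between libraries titled MI-389 and DMSO the medians of all complexes stay below 0 under each scaling and shrink after quantile normalization and cyclic loess; between libraries titled sunitinib and DMSO they cross 0.

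In the libraries titled sunitinib, 4 members were lower than in DMSO, none was higher and 74 did not pass (limma, Benjamini-Hochberg). Among all tested genes 19.3% were called, 16.9% lower and 2.37% higher, so with all 9 libraries the share of members called lower was below the background. The 4 were NDUFS6, a zinc-binding subunit of complex I, NDUFA6 and NDUFA8, accessory subunits of complex I, and SDHB. The median difference was −0.08, against −0.10 over all tested genes, and it turned to 0.0093 with median centring, 0.045 after quantile normalization and 0.052 after cyclic loess. Libraries did not overlap, with those titled sunitinib lower, for 7 members, against 29.3% of all tested genes.

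SDHB stood at 237, 269 and 296 FPKM in DMSO and 225, 219 and 217 FPKM in the libraries titled sunitinib, all 3 below the lowest DMSO library (−0.27 ± 0.075, limma, adjusted p = 0.0354). It alone was called lower under all 5 scalings, against 12.6% of all tested genes. NDUFS6 stood at 558, 685 and 676 FPKM in DMSO and 528, 529 and 531 FPKM in the libraries titled sunitinib (−0.27 ± 0.080, adjusted p = 0.0440), NDUFA6 differed by −0.21 (adjusted p = 0.0490) and NDUFA8 by −0.20 (adjusted p = 0.0489). These calls depended on single libraries: without DMSO replicate 1 the count was 55 of 78 lower, above the 32.1% of all tested genes (median −0.15), and it was 0 when any other library was left out. It was also 0 with the 6 compared libraries alone and with no filter on low values. NDUFS8 differed by −0.07 (95% interval −0.21 to 0.07) and COX7A2L by 0.09 (95% interval −0.04 to 0.21). COX7A2L was called higher after cyclic loess (0.23, adjusted p = 0.000966), quantile normalization (0.21, 0.000687) and median centring (0.17, 0.00875), and SDHC was called higher under the same 3 scalings (0.15 to 0.18).

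**Figure D4:**
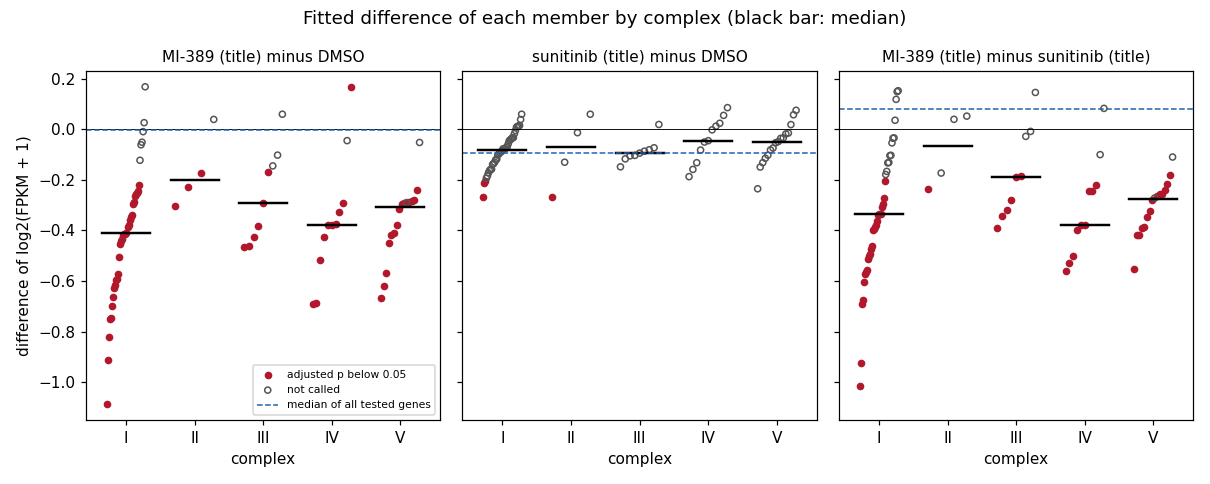
Fitted difference of log2(FPKM + 1), as deposited, for each member (points, sorted within a complex; filled where the adjusted p was below 0.05), with the median of each complex (black bar) and of all tested genes (dashed line). The complex medians lie below the dashed line in the comparison of libraries titled MI-389 with DMSO and close to it in that of libraries titled sunitinib with DMSO.

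The treated groups were compared with each other directly. As deposited, the DMSO libraries entered this comparison only through the filter on mean FPKM and the estimate of spread. The other scalings were computed on all 9 libraries, DMSO included. In the libraries titled MI-389, 55 of the 78 members were lower than in those titled sunitinib, none was higher and 23 did not pass (limma, Benjamini-Hochberg). Among all tested genes 56.3% were called, 20.3% lower and 36.0% higher. The median over members was −0.29 and that over all tested genes 0.08. Libraries did not overlap, with those titled MI-389 lower, for 65 members, against 27.0% of all tested genes, and 47 members were called lower under all 5 scalings, against 18.6%. With DMSO replicate 1 left out of the estimate of spread, 63 members were lower, against 23.4% of all tested genes, and 4 higher.

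By complex the lower members were 25 of 38 in complex I, 1 of 4 in complex II, 6 of 9 in complex III, 9 of 11 in complex IV and 14 of 16 in complex V. NDUFS8 was lower by 1.02 ± 0.064 (limma, adjusted p = 2.13e-06) and NDUFS7 by 0.92 ± 0.087, with falls of 0.69 for NDUFB3, 0.56 for COX6B1, 0.55 for ATP5J2 and 0.39 for UQCR10, a small subunit of complex III. In complex II SDHC was lower (−0.23, adjusted p = 0.00506). SDHB stood at 235, 221 and 225 FPKM in the libraries titled MI-389 and 225, 219 and 217 in those titled sunitinib and did not pass (0.04, 95% interval −0.13 to 0.21); it was −0.13 and called with median centring, 0.11 and called after quantile normalization, and 0.14 and called after cyclic loess. COX7A2L did not pass (0.08), but it was called higher after cyclic loess (0.20, adjusted p = 0.000327) and quantile normalization (0.15, 0.000637), and, with DMSO replicate 1 left out of the estimate of spread, at 0.0488. With median centring it was −0.08.

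Some members share sequence with other rows, and the division of reads among such copies is uncertain. SDHAP1 and SDHAP2, pseudogenes of SDHA, were higher in the libraries titled MI-389 than in DMSO (0.51 and 0.48, limma, adjusted p = 0.000162 and 0.000607), opposite to SDHA. SDHAP3 was more abundant than either (mean 38.7 FPKM) and did not pass (0.18, limma, adjusted p = 0.108). UQCRHL, a near copy of UQCRH, was lower (−0.68, adjusted p = 0.000183), as UQCRH was, and ATP5EP2, a copy of ATP5E, was higher (0.27, adjusted p = 0.0143). UQCRBP1, by its name a pseudogene of UQCRB, had a mean of 137 FPKM against 128 FPKM for UQCRB. It did not pass in this comparison (0.06, limma, adjusted p = 0.553), whereas UQCRB fell. In the libraries titled sunitinib UQCRBP1 was higher than in DMSO (0.41, limma, adjusted p = 0.0116) and was called so under all 5 scalings. ATP5EP2 was higher there as well (0.55, limma, adjusted p = 0.0031), also under all 5. UQCRHL was lower there (−0.31, limma, adjusted p = 0.0434), but not under all 5, and SDHAP1, SDHAP2 and SDHAP3 did not pass. Exons of 25 members overlap a gene on the opposite strand, 12 of them over more than 10% of their bases, and reads of such pairs cannot be told apart. NDUFS8, NDUFB3, COX7B and ATP5J2 are not among the 12. On the same strand, however, 22.4% of the ATP5J2 exon bases overlap the readthrough gene ATP5J2-PTCD1, whose row stood at 12.6 FPKM in DMSO replicate 2 and between 0.115 and 0.123 FPKM in the other 8 libraries. NDUFC2 overlaps its readthrough NDUFC2-KCTD14 in the same way, and that row lay between 0.328 and 1.21 FPKM. Other members named above also share exon bases with genes on the same strand. The shares were 26.5% for NDUFA13, 34.5% for COX8A, 70.3% for ATP5O, 13.9% for SDHD and 12.2% for UQCR11, among others.

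Assembly factors, which are not part of the finished complexes, were called in both directions in the libraries titled MI-389 against DMSO, by the same limma test and threshold. The counts of this and the next 2 paragraphs are to be read against the 28.3% of all tested genes called lower and the 28.5% called higher; those of complex I and complex IV factors and of biogenesis regulators lie near or below these shares. Of 16 complex I assembly factors 4 were higher and 4 lower (median −0.07), and 3 and 1 under all 5 scalings. NDUFAF5, a hydroxylase that acts on NDUFS7, was higher (0.54), and NDUFAF6 lower (−0.20). Of 10 factors of complexes II and III 5 were lower and 1 higher: SDHAF1 and SDHAF2, which load the iron-sulfur clusters and the flavin of complex II, fell by 0.92 and 0.61, and TTC19, a complex III factor, rose by 0.43.

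Of 23 complex IV factors 7 were lower and 6 higher (median 0.02). PET100 stood at 552, 598 and 679.7 FPKM in DMSO and 314, 294 and 318 FPKM in the libraries titled MI-389, and COX17, a copper chaperone, at 354, 451 and 423 FPKM in DMSO and 226, 209 and 249.6 FPKM in the libraries titled MI-389. TACO1, a translational activator of the mitochondrially made COX1, rose from 46.1, 49.5 and 49.4 to 76.7, 73.0 and 72.8 FPKM, and COX19, another copper-handling factor, by 0.70. None of these 4 overlapped between the groups, and each was called in its direction under all 5 scalings. Of 7 factors and accessory proteins of complex V, 4 were lower, including USMG5 (−0.57), C14orf2 (−0.60) and ATPIF1, the inhibitor of ATP synthase (−0.35), while ATPAF2, which assembles the catalytic head, was higher (0.42). CYCS, cytochrome c itself, did not pass (0.07, from −0.0079 to 0.26 over the scalings). Of the assembly and accessory genes named here with a call, ATPIF1 alone was not called under all 5 scalings.

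Of 7 tissue-restricted subunit isoforms only NDUFA4L2 passed the filter, at 0.269, 0.829 and 0.154 FPKM in DMSO and 3.55, 2.95 and 3.99 FPKM in the libraries titled MI-389. The other 6 had means below 1 FPKM. NDUFA4L2 reached that mean through the libraries titled MI-389, so the filter itself favored a gene that is higher there. Its DMSO values are low, and its passing is no separate sign of a rise. Of 12 tested regulators of mitochondrial biogenesis 4 were lower and 2 higher: ESRRA, an orphan nuclear receptor, fell by 0.47 and POLRMT, the mitochondrial RNA polymerase, by 0.43, and NRF1 rose by 0.21. PPARGC1A, the best known coactivator of these genes, lay near the floor of the table at 0.100 to 0.120 FPKM in all 9 libraries. Of 18 genes of the tricarboxylic acid cycle and pyruvate dehydrogenase 9 were lower and 2 higher (median −0.21), and 5 and 2 under all 5 scalings, with falls of 0.47 for IDH2 and 0.41 for OGDH, both dehydrogenases of the cycle.

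In the libraries titled sunitinib against DMSO, regulators of biogenesis were lower in 6 of 12 cases and higher in none (median −0.23), with ESRRA at −0.33 and TFAM, which packages mitochondrial DNA, at −0.31. Lower calls numbered 2 of 16 in complex I assembly, 4 of 10 in complex II and III assembly, 6 of 23 in complex IV assembly, where SURF1 alone was higher, 2 of 7 in complex V and 3 of 18 in the tricarboxylic acid cycle, against 16.9% of all tested genes lower and 2.37% higher. Lower under all 5 scalings were 6 of the biogenesis regulators, 1 factor of complex I, 1 of complexes II and III, 2 of complex IV, none of complex V and 2 genes of the tricarboxylic acid cycle, against 12.6% of all tested genes. CYCS was lower (−0.27, limma, adjusted p = 0.0115), at 162, 172 and 179 FPKM in DMSO and 149.9, 137 and 138 FPKM in the libraries titled sunitinib.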

How the data were processed

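RNA of MOLT4 cells, with ERCC spike-in RNA added by cell number, was made into polyA libraries with a SMARTer low-input kit that does not mark strand, per the labels' protocols. Per the submitters' processing notes, the tools were HISAT and Cufflinks 2.0.0 and the build hg19. The name under which the values were deposited ends in "norm". The sources used here do not give the annotation or say how libraries were normalized to each other. The authors deposited FPKM per gene symbol, in 23713 rows, of which 23621 are genes. Spike-in rows were level across libraries, so a normalization to them may let changes in total RNA per cell appear in every gene.

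The 12301 genes whose mean reached 1 FPKM were fitted with limma 3.58.1 (R 4.3.3) on log2(FPKM + 1). The model held all 9 libraries in 3 groups by title, with trended variance; tests were two-sided, with Benjamini-Hochberg adjustment. The model was run on simulated data with independent errors and few changed genes. That setting differs from these libraries, so it is no check of the calls given here. Alternatives were other pseudocounts, filters, scalings between libraries, variance settings and sample sets, a replicate block, and each library left out.

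Named genes were, in each complex, the called members with the smallest adjusted p (at most 3), the most abundant member, and any called against the majority, with the SDH genes, ATP5G1 to ATP5G3, COX7A2 and COX7A2L; other members were named after their values were seen. Members and lists were chosen with earlier results of these data known. The 78 symbols were matched to GENCODE 29 for lengths and exon overlap, and to RefSeq (GRCh38.p14) for promoters. These builds differ from hg19 and gave no measured values. No column was left unmapped. Values of 1 member are not reported here by name; it is included in the counts and medians.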

Additional observations from a re-analysis of the deposited data

How the results depend on the processing

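Between libraries titled MI-389 and DMSO, the count of 65 called members in either direction stayed within 1.5 times under every alternative run, but the 64 lower and 1 higher became 42 and 11 after cyclic loess, and the median of −0.38 became −0.16 after quantile normalization and −0.088 after cyclic loess. Leaving out single libraries gave 58 to 71 calls and medians of −0.43 to −0.32. For those titled sunitinib against DMSO, the 4 calls became 0 with no filter, 0 with the 6 compared libraries, 1 without a variance trend, 6 (5 higher) with median centring, 20 (17 higher) after quantile normalization and 30 (26 higher) after cyclic loess; the median of −0.08 became 0.0093, 0.045 and 0.052 in the last 3. Leaving out single libraries gave 0 to 55 calls, the 55 without DMSO replicate 1, and medians of −0.15 to −0.03. Between the treated groups the count of 55 stayed within 1.5 times, with 45 to 67 calls and medians of −0.31 to −0.27 when single libraries were left out; the median of −0.29 became −0.45 with median centring and −0.16 after cyclic loess. The cause of these changes was not tested.

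Against DMSO in the libraries titled MI-389, ATP5E turned to 0.033, ATP5G2 to 0.027 and SDHB to 0.014 after cyclic loess. SDHD in the libraries titled sunitinib turned to 0.12 after quantile normalization and 0.13 after cyclic loess. Between the treated groups SDHB turned to −0.13 and SDHD to −0.11 with median centring. Over named genes and settings, 479 of 504 values kept direction and side of the threshold for libraries titled MI-389 against DMSO, 264 of 336 for those titled sunitinib, and 480 of 504 between the treated groups.

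Replicate numbers are shared by the groups, but 1 of 9 same-numbered pairs correlated above 0.1 (−0.04 to 0.11) and 11 of 18 matches were best with their own number, so the numbers were not taken to pair samples. With a replicate block the calls were 62 lower and 0 higher (libraries titled MI-389 against DMSO), 0 (sunitinib against DMSO) and 53 lower (between the treated groups). The number of reads behind each FPKM value is unknown, so no counting interval is given.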
